A study of Mus musculus with 31 samples.

Results

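Mitochondrial genome transcripts are the RNAs copied from the small circular DNA inside mitochondria, and they were taken here as all genes of the count table whose symbol starts with mt-. The rule found 37 of the 48795 genes listed. They are 2 ribosomal RNAs (rRNAs), 13 messenger RNAs (mRNAs) and 22 transfer RNAs (tRNAs). Every one of the 37 matched the annotation of chromosome M in GENCODE M21 (build GRCm38) by its Ensembl gene ID, 28 on the plus strand and 9 on the minus strand.

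The series examined what early-life exposure to deltamethrin does to transcription in the mouse brain. Deltamethrin is a pyrethroid, a class of insecticide known for keeping neuronal sodium channels open. Total RNA from aliquots of homogenised brain was sequenced in 31 libraries. The labels give 13 of them the agent control and 18 the agent deltamethrin. They give no strain, sex, age, dose, litter, collection time or batch, and nothing in them says that samples came from separate animals, so p-values measure only the spread between these samples.

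Mitochondrial DNA codes for a core of the respiratory chain and for the RNAs needed to translate it. Both strands are transcribed into long precursors from which tRNAs are cut out, and this frees the rRNAs and mRNAs that lie between them. Neurons depend heavily on oxidative phosphorylation, and mitochondrial transcripts are abundant in brain RNA. The nuclear genome also carries pieces of mitochondrial DNA, and reads from transcripts that look alike can be counted at either place.

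Total counts per library ran from 17570311 to 38680621 with a median of 30662621. They were 17570311 to 35716869 in controls and 24563143 to 38680621 in deltamethrin libraries, and the lowest total belonged to control replicate 2. No pair of the 465 possible pairs of libraries agreed within sampling noise, the smallest chi-square per degree of freedom being 7.04. Defining markers of brain were present: all 5 neuronal, 3 astrocyte and 3 oligodendrocyte markers had counts in every library, and the neuronal markers summed to 2075 to 4723 counts per 1000000 non-mitochondrial counts. Markers of choroid plexus (4 of 4 detected in every library) summed to 318 to 1660 in controls and 298.8 to 915.2 in deltamethrin libraries, and 4 markers of other organs, of which 2 were detected in every library, to at most 17.13. In whole tissue, fewer cells of a type and less RNA per cell cannot be told apart.

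Counts on chromosome M can depend on what lies beside each gene, and 3 boundaries are shown for that reason. Whether they did so here was not tested. mt-Tv, the tRNA for valine, lies between both rRNAs with no base to spare. The first 25 bases of the right-hand gene are in capitals in the first pair of sequences, and the capitals in the last one are the 43 bases (7927 to 7969) that mt-Atp8 and mt-Atp6 share. All are 5′ to 3′ on the plus strand of GRCm38, from the GENCODE M21 transcripts.
mt-Rnr1 into mt-Tv, chrM:1000-1049: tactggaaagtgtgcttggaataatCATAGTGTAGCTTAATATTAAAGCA
mt-Tv into mt-Rnr2, chrM:1069-1118: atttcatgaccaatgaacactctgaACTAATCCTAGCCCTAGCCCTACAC
mt-Atp8 into mt-Atp6, chrM:7912-7984: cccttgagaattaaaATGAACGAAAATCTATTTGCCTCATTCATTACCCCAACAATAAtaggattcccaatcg
The counting step decides where a read over such a boundary goes, and the counting rule is not given in the sources used here.

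The tRNAs on which the tRNA results turn are shown next, each 5′ to 3′ on its own strand and written with T. Capitals mark the anticodon, found by a search for a loop of 7 bases closed by a paired stem. The 4 minus-strand tRNAs come first, for proline, cysteine, asparagine and tyrosine. The tRNA for valine and 1 of the 2 tRNAs for serine follow from the plus strand. The search found no anticodon in mt-Ts2, so it has no capitals.
mt-Tp, chrM:15356-15422, minus strand: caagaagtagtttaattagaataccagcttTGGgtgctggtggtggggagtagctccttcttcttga
mt-Tc, chrM:5192-5257, minus strand: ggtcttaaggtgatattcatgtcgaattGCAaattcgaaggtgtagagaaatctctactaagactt
mt-Tn, chrM:5089-5159, minus strand: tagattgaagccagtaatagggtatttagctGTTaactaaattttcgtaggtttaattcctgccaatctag
mt-Ty, chrM:5260-5326, minus strand: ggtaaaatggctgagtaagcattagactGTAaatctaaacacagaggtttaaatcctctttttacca
mt-Tv, chrM:1025-1093, plus strand: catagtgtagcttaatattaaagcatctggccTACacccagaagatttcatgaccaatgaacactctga
mt-Ts2, chrM:11613-11671, plus strand: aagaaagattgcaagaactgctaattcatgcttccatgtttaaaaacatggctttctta

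The rRNAs held most of the mitochondrial counts. mt-Rnr1 (ENSMUSG00000064337, chrM:70-1024), the rRNA of the small mitochondrial ribosomal subunit, and mt-Rnr2 (ENSMUSG00000064339, chrM:1094-2675), the rRNA of the large subunit, together took 16.15% ± 9.124 (SD, n = 13) of the column total in controls and 14.41% ± 4.983 (SD, n = 18) in deltamethrin libraries. The control libraries had a lowest share of 8.486%, a median of 12.88% and a highest of 40.24%, and the deltamethrin libraries 7.324%, 14.84% and 26.3%. The groups overlapped, and a single control library stood far above every other.

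That library was control replicate 2, with a 95% Wilson interval of 40.22% to 40.27%. The lowest, deltamethrin replicate 11, had an interval of 7.316% to 7.333%. Such intervals cover counting error only, so the spread between libraries was far larger than the counting error. The difference of the means, deltamethrin minus control, was -1.738 percentage points, while the difference of the medians was 1.964. Without control replicate 2 the control mean was 14.14% ± 5.8 (SD) and the difference 0.2702, so its sign rested on 1 library. As a percentage of the non-mitochondrial counts, the difference of the means was -3.886.

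mt-Rnr2 had 68869 counts per 1000000 counts of the library (CPM) in the lowest control library, 108520 at the median and 341680 in the highest, against 59614, 121810 and 220570 in the deltamethrin libraries. mt-Rnr1 had 15422, 21221 and 60765 in controls and 13249, 26104 and 42441 in deltamethrin libraries. For both rRNAs the control libraries reached higher and the deltamethrin libraries had the higher median. mt-Rnr1 made up 17.01% ± 2.043 (SD, n = 13) of the rRNA counts in controls and 17.34% ± 1.165 (SD, n = 18) with deltamethrin, so the division between both subunits varied far less than their summed share.

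**Figure D1:**
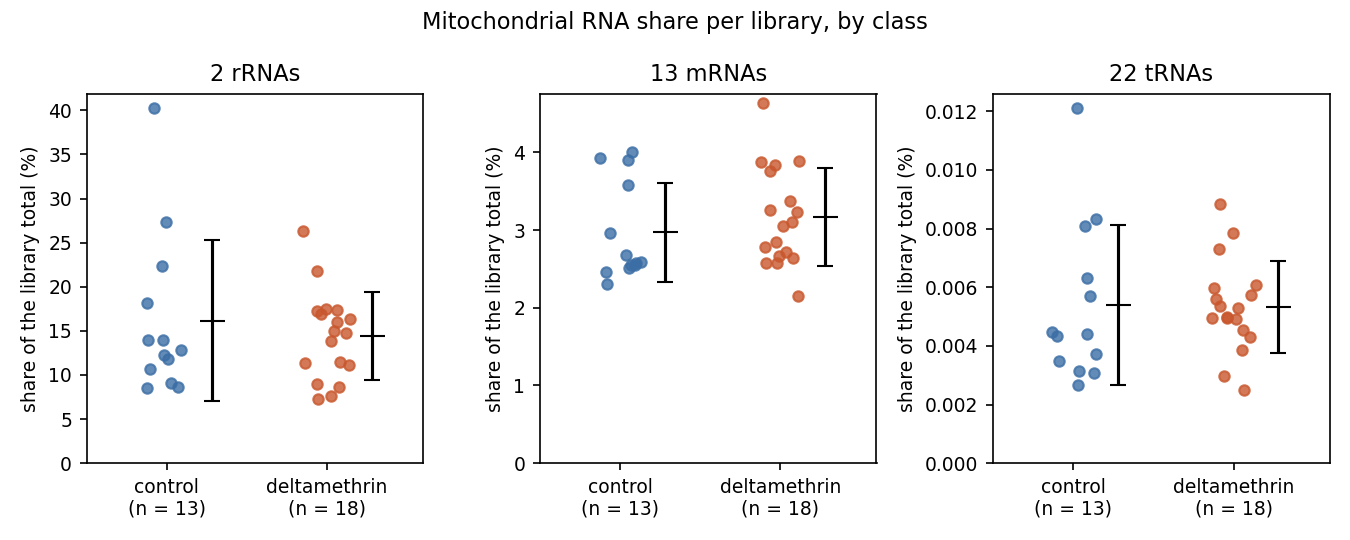
Percent of all counts taken by the 2 rRNAs, the 13 mRNAs and the 22 tRNAs of the mitochondrial genome, 1 point per library, with the mean and SD of each group (13 control, 18 deltamethrin). The groups overlap in each panel, and control replicate 2 is the highest point for the rRNAs (40.24%) and for the tRNAs (0.01213%).

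The 13 mRNAs took 2.971% ± 0.6374 (SD, n = 13) of all counts in controls and 3.165% ± 0.6308 (SD, n = 18) with deltamethrin. The lowest, median and highest control libraries were at 2.311%, 2.596% and 4.01%, and the deltamethrin libraries at 2.15%, 3.076% and 4.635%. The difference of 0.1941 percentage points was smaller than the SD within either group, and it was 0.0895 as a percentage of the non-mitochondrial counts. All mitochondrial genes together took 19.13% ± 9.612 (SD, n = 13) in controls and 17.58% ± 5.497 (SD, n = 18) with deltamethrin. Within those counts the mRNA part ran from 8.165% in control replicate 2 to 25.77% in deltamethrin replicate 3, so these libraries lay at opposite ends.

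The mRNAs code for subunits of 4 respiratory complexes: complex I, which oxidises NADH (7 genes), complex III (mt-Cytb), complex IV, which reduces oxygen (3 genes), and complex V, which makes ATP (2 genes). Complex IV had 70.68% ± 1.424 (SD, n = 13) of the mRNA counts in controls and 70.18% ± 2.041 (SD, n = 18) with deltamethrin. Complex I had 14.2% ± 1.192 and 14.7% ± 1.303 in the same order, complex V 8.607% ± 0.7993 and 8.446% ± 0.478, and complex III 6.516% ± 0.7396 and 6.676% ± 0.5651. Each of the 4 differed between the groups by less than 1 SD. These shares leave out the near-identical nuclear copies described below. With the copies added to their genes, complex IV had 73.17% in controls and 72.51% with deltamethrin, and complex III 4.141% and 4.299%. Complex I then had 11.24% and 11.76% and complex V 11.45% and 11.42%, so complex I no longer stood clearly above complex V.

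By library, the 5 mRNAs with the highest mean counts overlapped between the groups. mt-Co1 had 8245, 9030 and 12848 CPM in the lowest, median and highest control library and 7644, 10756 and 15546 with deltamethrin. In 16 of 18 deltamethrin libraries it stood above the control median and in 4 above every control. mt-Co3 had 4575, 6165 and 12420 in controls and 3811, 6668 and 12230 with deltamethrin, and mt-Co2 3160, 3561 and 5598 against 3034, 3852 and 5463. For both, no deltamethrin library exceeded the highest control.

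mt-Atp6 had 1878, 2161 and 4000.2 CPM in controls and 1723, 2398 and 4121 with deltamethrin, with 1 deltamethrin library above every control. mt-Cytb, the complex III subunit that carries electrons from ubiquinol, had 1653, 1748 and 2417 in controls and 1639, 2049 and 2855 with deltamethrin, where 17 of 18 libraries stood above the control median. Among the remaining complex I subunits, mt-Nd1 ranged over 1155 to 2080 in controls and 1239 to 2258 with deltamethrin. The mt-Nd2 ranges were 335.8 to 594.3 and 369.2 to 691.9, and those of mt-Nd3 were 258.1 to 1192 and 217.7 to 1002. mt-Nd3 was thus the widest of these, and its highest library was control replicate 2.

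The rarest mRNAs were mt-Nd4l, at 16.56 to 50.7 CPM in controls and 23.5 to 64.11 with deltamethrin, mt-Nd6, at 4.895 to 21.58 and 7.698 to 22.6, and mt-Atp8, at 3.368 to 9.72 and 3.744 to 8.457. Control replicate 2 was the lowest of all libraries for mt-Nd4l and for mt-Nd6. For mt-Atp8, a small subunit of complex V, 17 of 18 deltamethrin libraries stood above the control median and none above the highest control.

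Levels per kilobase of gene and per 1000000 non-mitochondrial counts, averaged over 31 libraries with their SD, set the mRNAs in an order. mt-Co3 was first at 11730 ± 5372, followed by mt-Co1 at 8470 ± 2140, mt-Co2 at 7339 ± 2098 and mt-Atp6 at 4870 ± 1729. The first 3 code for the core subunits of complex IV and mt-Atp6 for the proton channel of complex V. mt-Co3 exceeded mt-Co1 in 30 of 31 libraries, mt-Co1 exceeded mt-Co2 in 29, and mt-Co2 exceeded mt-Atp6 in 31. This order leaves out counts listed under the near-identical nuclear copies described below. Their median count was 99.49% of that of mt-Co2 but 21.84% of that of mt-Co1. Adding the copies could therefore change the order of the mRNAs, and the order with copies added was not computed.

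The middle of the order was less settled. mt-Cytb, at 2184 ± 490.7, exceeded mt-Nd1, at 2058 ± 536.5, in 23 libraries, and mt-Nd1 exceeded mt-Nd3, at 1901 ± 1159, in 23. mt-Nd4 followed at 854.6 ± 152.2. mt-Nd5, at 570.0 ± 124.6, exceeded mt-Nd2, at 565.5 ± 141, in 15 of 31 libraries, so these neighbours could not be ordered.

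The last of the order were mt-Nd4l at 151.6 ± 44.41, mt-Atp8 at 37.22 ± 12.57 and mt-Nd6 at 26.43 ± 9.302. mt-Atp8 shares 43 of its 204 bases with mt-Atp6 and mt-Nd4l overlaps the start of mt-Nd4, so their counts can also reflect how reads over shared bases were assigned; this was not tested. mt-Nd6 (chrM:13552-14070) is the single mRNA on the minus strand, where the 9 genes together took a mean of 0.006289% of all counts.

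**Figure D2:**
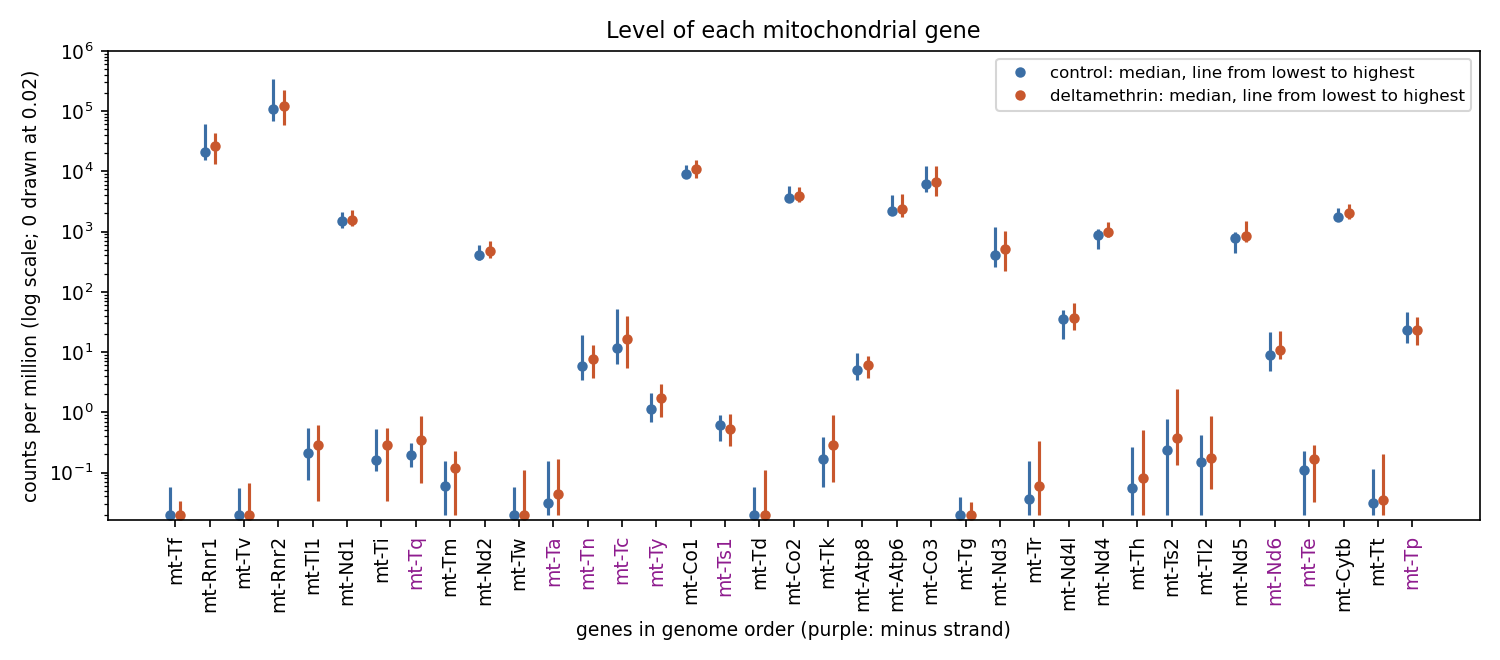
Median and range of CPM of each of the 37 genes in genome order, for 13 control and 18 deltamethrin libraries, on a log axis with a count of 0 drawn at 0.02. Names of minus-strand genes are purple. The rRNAs lie at the top and most tRNAs at the foot, but mt-Tp and mt-Tc have higher medians than mt-Nd6 and mt-Atp8. The ranges of both groups overlap for every gene.

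Several of the mRNA counts are uncertain because near-identical copies of these genes are listed elsewhere in the table. A search for transcripts with at least 99% identity over at least 200 bases found 7 unprocessed pseudogenes, all on the minus strand of chr1:24611535-24616197, a span of 4663 bases. They held 1.136% to 2.709% of all counts, with a median of 1.609%, beside the 2.15% to 4.635% listed under the mitochondrial mRNAs.

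Gm28661 matched mt-Co2 over 681 of 684 bases with no mismatch, and its count was 99.21% to 100.5% of the mt-Co2 count in the 31 libraries. The count of Gm28437 was 98.12% to 100.7% of mt-Co3, that of Gm28438 100.4% to 103.3% of mt-Nd3, that of Gm10222 100.7% to 105.4% of mt-Nd4l and that of Gm10925 108.8% to 113.2% of mt-Atp6. Gm28439, which covers 876 of the 1378 bases of mt-Nd4, stood at 50.83% to 60.3%, and Gm29216, which covers 483 of the 1545 bases of mt-Co1, at 19.13% to 26.04%. The 5 copies that cover nearly the whole gene thus had counts close to or above those of the gene, and both partial copies had lower ones.

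The base differences between the genes and these copies were few, and the 2 found in the aligned stretches are shown because they are the letters by which a read could be told apart. Substitutions are given as the base of the mitochondrial gene, its position counted from 1 at the 5′ end of that gene, and the base of the copy. They were A1066T for mt-Co1 and T3C for mt-Nd3, and capitals mark the differing base.
mt-Co1 positions 1063 to 1091, chrM:6390-6418: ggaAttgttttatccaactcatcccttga
Gm29216: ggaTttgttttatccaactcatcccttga
mt-Nd3 positions 1 to 28, chrM:9459-9486: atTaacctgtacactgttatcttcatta
Gm28438: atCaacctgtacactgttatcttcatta
Both differences lie close to an end of the aligned stretch, and the rest of it is the same letter for letter.

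The share of the summed mt-Co2 and Gm28661 counts listed under the copy had an SD of 0.05477 percentage points over the libraries. Independent random assignment of each count would give an SD of 0.1027. For mt-Nd3 these were 0.1708 and 0.303, and for mt-Nd4l 0.2661 and 1.117, so these 3 pairs varied less than random assignment of separate reads would give. The other 4 pairs varied more, by 1.505 times for mt-Co3, 1.924 for mt-Atp6, 4.904 for mt-Nd4 and 19.56 for mt-Co1. The counting rule is not given in the sources used here, and whether 1 read was listed under both genes was not tested. Adding each copy to its gene raised the difference in mRNA share from 0.1941 to 0.2239 percentage points and left the number of genes passing each test as given below.

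**Figure D3:**
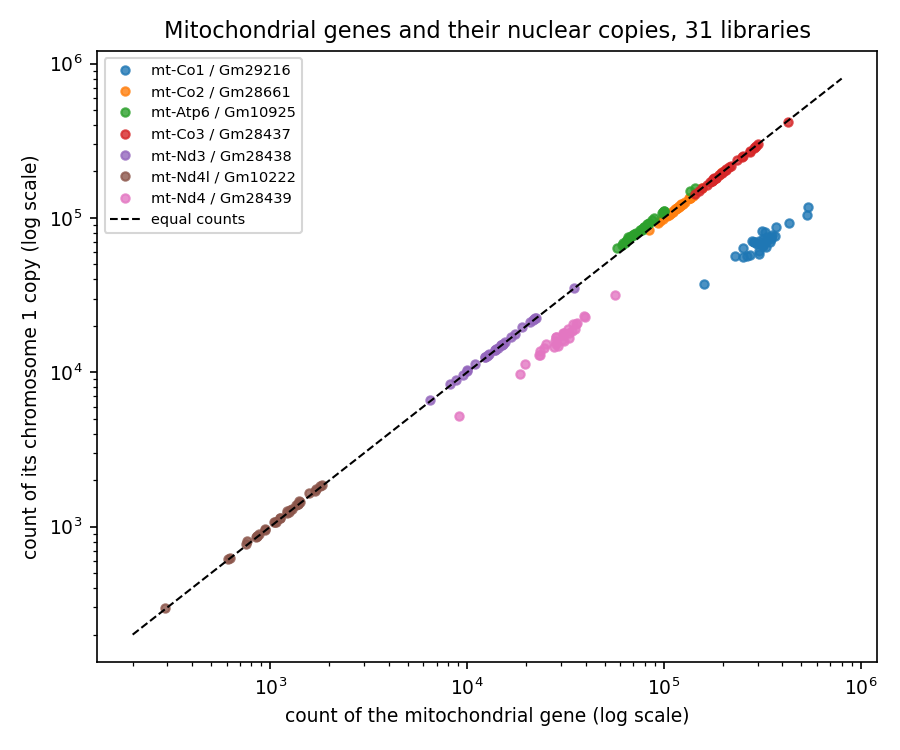
Count of each of 7 mitochondrial mRNA genes (horizontal) and of its near-identical copy on chromosome 1 (vertical) in each of 31 libraries, with the line of equal counts. Points of mt-Co2, mt-Co3, mt-Nd3 and mt-Nd4l lie on or next to the line, and those of mt-Nd4 and mt-Co1, whose copies cover 63.6% and 31.3% of the gene, lie under it.

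The tRNAs, which carry amino acids to the mitochondrial ribosome, took 0.00538% ± 0.00273 (SD, n = 13) of all counts in controls and 0.005336% ± 0.001565 (SD, n = 18) with deltamethrin, or 843 to 2824 counts in a library. mt-Tp, mt-Tc and mt-Tn held 91.34% of these counts and the 8 minus-strand tRNAs 96.39%. mt-Tp had 387 counts in the lowest library, 719 at the median and 1319 in the highest. mt-Tc had 203, 476 and 958 and mt-Tn 103, 213 and 398, while the median of 16 of the 22 tRNAs was 10 counts or fewer. The next in order were mt-Ty, with 20, 41 and 113, and mt-Ts1, the other tRNA for serine, with 9, 16 and 33.

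mt-Tp had 14.02, 23.36 and 46.9 CPM in the lowest, median and highest control library and 13.28, 23.06 and 37.94 with deltamethrin. mt-Tc had 6.351, 11.53 and 51.79 against 5.39, 16.61 and 39.0, and mt-Tn 3.381, 5.835 and 19.41 against 3.69, 7.615 and 12.82. For all 3, control replicate 2 was the highest library and no deltamethrin library exceeded it. mt-Ts1 had 0.333, 0.626 and 0.907 in controls and 0.277, 0.536 and 0.949 with deltamethrin, where 6 of 18 libraries stood above the control median.

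Position differed among these genes. mt-Tp is the last annotated gene of the chromosome and has no gene after it, and 32 bases with no gene lie between mt-Tn and mt-Tc. mt-Tf, at the other end, has no gene before it, yet had 0 counts in 27 libraries. mt-Ty, with 2 free bases before it and 1 after, had a median of 41 counts. Whether position and count go together was not tested. mt-Tv, which fills the whole gap between both rRNAs shown above, had 0 counts in 23 libraries and at most 2. A count of 0 allows up to 3 counts, which is 0.0776 to 0.171 CPM at these depths, so mt-Tv, mt-Tf and mt-Tg, each at or below 2 counts in every library, could not be told from absent. Mature tRNAs are short and modified, and standard libraries recover them poorly; which molecules gave these counts was not tested.

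For the comparison of deltamethrin with control, edgeR's quasi-likelihood test was run on the 19529 genes that passed its filter on low counts. The 21 mitochondrial genes that passed were both rRNAs, all 13 mRNAs and 6 tRNAs (mt-Tn, mt-Tc, mt-Ty, mt-Ts1, mt-Ts2 and mt-Tp). The other 16 tRNAs did not pass the filter and were tested only in a run with no count filter. None of the 21 had an adjusted p under 0.05, where 0% of all tested genes did, and DESeq2 and limma voom also called 0. At an unadjusted p under 0.05 edgeR called 4 of the 21, all higher with deltamethrin. Of all tested genes 4.37% passed, 2% in that direction and 2.37% in the other. DESeq2 called 4 of the 21 beside 5.05% of all tested genes, and limma voom 3 beside 4.34%. The 4 of 21 are 19% of tested members, but mitochondrial genes share transcripts and libraries and are not independent of each other.

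mt-Ts2 (ENSMUSG00000064365), a tRNA for serine, had 0 CPM in the lowest control library, 0.235 at the median and 0.762 in the highest, against 0.131, 0.372 and 2.404 with deltamethrin. Its counts were 0 to 20 in controls and 4 to 93 with deltamethrin, the 93 in deltamethrin replicate 3. In 16 of 18 deltamethrin libraries it stood above the control median and in 4 above every control, so the groups overlapped and a few libraries reached far higher. The log2 fold change in edgeR was 1.08 ± 0.37 (SE) with an unadjusted p of 0.00575 and an adjusted p of 0.813. Without control replicate 2 and deltamethrin replicate 3 it was 0.69 with an unadjusted p of 0.0259.

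mt-Ty (ENSMUSG00000064350), the tRNA for tyrosine, had 0.697, 1.138 and 2.119 CPM in the lowest, median and highest control library and 0.850, 1.716 and 2.921 with deltamethrin. In 15 of 18 deltamethrin libraries it exceeded the control median and in 5 the highest control. Its log2 fold change in edgeR was 0.40 ± 0.18 (SE), with an unadjusted p of 0.0349 and an adjusted p of 0.813.

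mt-Nd5 (ENSMUSG00000064367, chrM:11742-13565) and mt-Nd4 (ENSMUSG00000064363, chrM:10167-11544) code for neighbouring subunits of the membrane arm of complex I. mt-Nd5 had 436.6, 788.3 and 980.1 CPM in the lowest, median and highest control library and 666.5, 851.0 and 1520.2 with deltamethrin. mt-Nd4 had 517.7, 891.8 and 1084.7 against 798.7, 992.3 and 1460.6. For each of these genes 5 deltamethrin libraries exceeded every control, deltamethrin replicate 3 was the highest and control replicate 2 the lowest library, and the rest overlapped.

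The log2 fold change was 0.22 ± 0.11 (SE) for mt-Nd5 (edgeR, unadjusted p = 0.0478, adjusted p = 0.813) and 0.18 ± 0.089 for mt-Nd4 (edgeR, unadjusted p = 0.0491, adjusted p = 0.813). Without control replicate 2 and deltamethrin replicate 3 these were 0.14 and 0.13, with unadjusted p of 0.138 and 0.12. With mitochondrial genes left out of the library sizes and scaling factors, mt-Nd5 and mt-Nd4 no longer passed and 2 of 21 genes were called, where 4.33% of all tested genes passed, 1.68% as higher with deltamethrin. Gm28439, the partial copy of mt-Nd4, had a log2 fold change of 0.22 ± 0.088 (SE) and an unadjusted p of 0.0169 in edgeR (adjusted p = 0.813), and it shares bases with mt-Nd4.

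The other 17 tested genes had unadjusted p-values of 0.187 or more. The rRNAs had negative fold changes, -0.28 ± 0.25 (SE) for mt-Rnr1 (edgeR, adjusted p = 0.824) and -0.35 ± 0.27 for mt-Rnr2 (adjusted p = 0.815). mt-Nd6, of the same complex as mt-Nd5 but on the opposite strand, had 0.21 ± 0.16 and an unadjusted p of 0.187. mt-Co1, the mRNA with the highest mean count when nuclear copies are left out, had 0.11 ± 0.13, from 9768 ± 1635 (SD, n = 13) to 11061 ± 2075 (SD, n = 18) CPM. Of the 13 mRNAs, 8 had a positive fold change and 5 a negative one, with a median of 0.0756 on the log2 scale, beside 9864 of 19529 positive and a median of 0.00137 over all tested genes.

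The signs rested in large part on control replicate 2. Without it the fold change was 0.020 for mt-Rnr1 and 0.0035 for mt-Rnr2, all 13 mRNAs were positive with a median of 0.135, and 20 of the 21 genes were positive where 10 had been. Over all tested genes 9746 of 19623 were then positive. The number at an unadjusted p under 0.05 was 2 of 21 without it, where 3.64% of all tested genes passed. Signs also moved with the scaling. Control replicate 2 had the lowest scaling factor of the libraries, 0.6134. With no scaling factors and every library kept, 10 of the 13 mRNAs were positive, beside 12524 of 19529 tested genes.

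**Figure D4:**
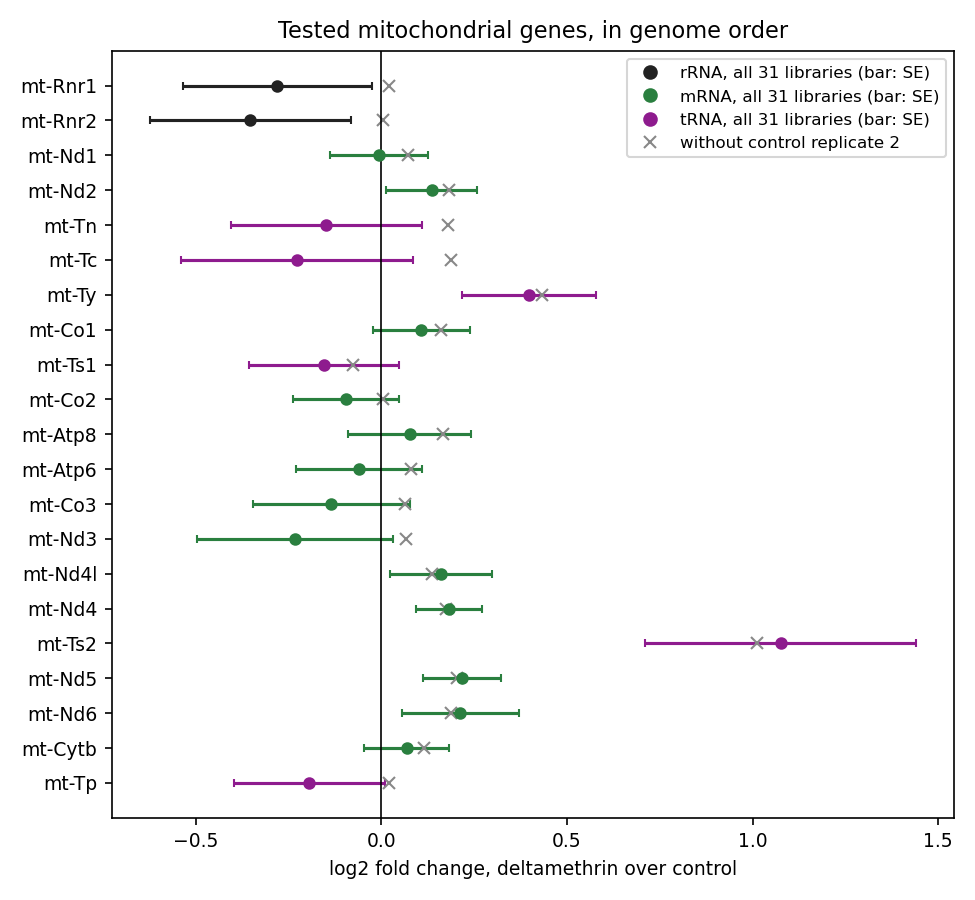
Log2 fold change (deltamethrin over control) with its SE in edgeR for the 21 mitochondrial genes tested, with a cross for the value without control replicate 2. The crosses lie to the right of the points for the rRNAs, which move from below 0 to next to it, and mt-Ts2 is the farthest from 0 at 1.08.

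Libraries at the extremes recurred across members. Deltamethrin replicate 3 was the highest of the 31 libraries for 12 of the 37 genes, among them mt-Nd2, mt-Nd4, mt-Nd5, mt-Nd6, mt-Ty and mt-Ts2. Control replicate 2 was the highest for 8, among them both rRNAs, mt-Co3, mt-Nd3 and mt-Tc, and the lowest for 7, among them mt-Nd4, mt-Nd4l, mt-Nd5, mt-Nd6 and mt-Ts2. Deltamethrin replicate 11 was the lowest for 9, with mt-Rnr2, mt-Co1, mt-Co2, mt-Co3 and mt-Cytb among them. The same library was thus at opposite ends for different genes of 1 genome. These numbers include tRNAs near the floor, such as mt-Tf with 1 count and mt-Tl2 with 0 counts in control replicate 2. How often these libraries were extreme over all genes was not computed.

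The 16 tRNAs that did not pass the filter summed to 0.777, 1.252 and 2.363 CPM in the lowest, median and highest control library. With deltamethrin these sums were 1.156, 1.954 and 5.041, the highest again in deltamethrin replicate 3. The means were 1.451 ± 0.4878 (SD, n = 13) and 2.178 ± 0.931 (SD, n = 18). For 13 of the 16 the mean CPM was higher with deltamethrin. CPM carries no scaling factors, and in edgeR without such factors 12524 of 19529 tested genes were higher too. With scaling factors and no count filter, 15 of the 22 tRNAs had a positive fold change, beside 20863 of 38214 genes. Their median was 0.41 on the log2 scale, beside 0.0228 over those genes. These sums rest on 21 to 195 counts in a library, and the groups overlapped.

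Ratios within a library need no scaling to the library total, and 3 were compared in permutation tests (two-sided) with adjustment over the 3. The log2 ratio of mt-Rnr2 to mt-Rnr1 counts was 2.297 ± 0.22 (SD, n = 13) in controls and 2.256 ± 0.1216 (SD, n = 18) with deltamethrin, a difference of -0.041 (permutation p = 0.528, adjusted p = 0.791). The log2 ratio of mt-Co1 to mt-Rnr2 was -3.631 ± 0.604 and -3.369 ± 0.365, a difference of 0.262 (permutation p = 0.143, adjusted p = 0.429), with control replicate 2 the lowest at -5.233. The log2 ratio of mt-Nd6 to mt-Nd5, which code on opposite strands, was -6.304 ± 0.336 and -6.275 ± 0.248, a difference of 0.0288 (permutation p = 0.791, adjusted p = 0.791). None of the 3 ratios differed beyond its spread, and the difference in mt-Co1 over mt-Rnr2 was 0.129 without control replicate 2 and 0.0624 with the log2 total count as a covariate.

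The ratios also give levels between genes. Per kilobase, mt-Rnr2 exceeded mt-Rnr1 by 2.94 ± 0.375 times (SD, n = 31), although both come from the same precursor, and mt-Nd5 exceeded mt-Nd6 by 22.6 ± 4.23 times. The count of mt-Rnr2 was 6.88 to 37.6 times that of mt-Co1. The 37.6 was in control replicate 2. The ratio of mt-Rnr2 to mt-Co1 varied more between libraries than that of mt-Rnr2 to mt-Rnr1, which ran from 3.878 to 7.266 as counts. No other mRNA was set against mt-Rnr2 as a ratio.

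How the members moved together was described across the 31 libraries, on log2 counts per 1000000 non-mitochondrial counts, with mt-Rnr2 as the reference. Of 20 other members, 14 had a correlation with mt-Rnr2 with an adjusted p under 0.05 (permutation tests adjusted over 30 correlations), and 19 of the 20 were positive on this scale. The share of all genes that correlate with mt-Rnr2 on this scale was not computed. Whether 14 of 20 exceeds that share is therefore not known. mt-Rnr1 had Pearson r = 0.973 and Spearman rho = 0.959, and mt-Nd3 0.960 and 0.967, each with the smallest permutation p these tests can give (1e-05). Without the 2 libraries farthest from the median of mt-Rnr2 (control replicates 2 and 7), r was 0.957 and 0.944. Within controls mt-Rnr1 had r = 0.968 and within deltamethrin libraries 0.980, and mt-Nd3 had 0.972 and 0.952.

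The amount by which a gene moved differed among members. For each log2 unit of mt-Rnr2, mt-Nd3 moved by 0.99, mt-Rnr1 by 0.93, mt-Tc by 0.90 and mt-Co3 by 0.74. mt-Co2 moved by 0.48, mt-Nd1 by 0.43, mt-Co1 by 0.39 and mt-Cytb by 0.33. mt-Co1, with r = 0.804 and rho = 0.836, had r = 0.847 without the same 2 libraries.

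mt-Nd4, mt-Nd4l, mt-Nd5 and mt-Nd6 did not pass. mt-Nd4 had r = 0.277 (permutation p = 0.132, adjusted p = 0.172), rho = 0.374 (permutation p = 0.038, adjusted p = 0.0543) and a slope of 0.095, and mt-Nd5 r = 0.114 (permutation p = 0.538, adjusted p = 0.598), Spearman rho = 0.242 and a slope of 0.046. Within controls and within deltamethrin libraries mt-Nd5 had r = 0.185 and 0.143. Without control replicates 2 and 7, r was 0.464 for mt-Nd4, 0.436 for mt-Nd6, 0.341 for mt-Nd4l and 0.264 for mt-Nd5. On CPM of the whole library in place of the non-mitochondrial total, r was -0.250 for mt-Nd4, -0.320 for mt-Nd5, -0.136 for mt-Nd4l and -0.083 for mt-Nd6, so their sign depended on the scaling. All 4 lie in the stretch of the chromosome between mt-Tr and mt-Te, with mt-Th, mt-Ts2 and mt-Tl2 between mt-Nd4 and mt-Nd5. Among the tRNAs, mt-Ty had r = 0.347 (permutation p = 0.0556, adjusted p = 0.0758) and mt-Ts2 r = -0.377 (adjusted p = 0.0528), which was -0.146 without control replicates 2 and 7 and -0.458 on CPM. All points share the library and its non-mitochondrial total, and genes of 1 genome are not independent replicates.

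Some nuclear RNAs of other kinds moved with mt-Rnr2 as well. Of 10 RNAs retained in the nucleus or nucleolus or made by other polymerases, 6 passed, again with no share over all genes to set beside it. Rmrp, the RNA of the nuclease RNase MRP, had r = 0.866 and a slope of 1.12, Rn7sk r = 0.857 and Rpph1, the RNA of RNase P, r = 0.834. Malat1 had r = 0.125 and Neat1 -0.0018. On CPM of the whole library r was 0.819 for Rmrp, 0.686 for Rn7sk and 0.755 for Rpph1. For Snhg11, which had 0.475 and passed, r was then 0.275, and Malat1 and Neat1 had -0.328 and -0.276. Levels of some nuclear RNAs of this list, chosen with earlier results of these data known, thus moved with the mt-Rnr2 level. How far library composition in general did so, and its part in the shares and fold changes above, was not tested.

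**Figure D5:**
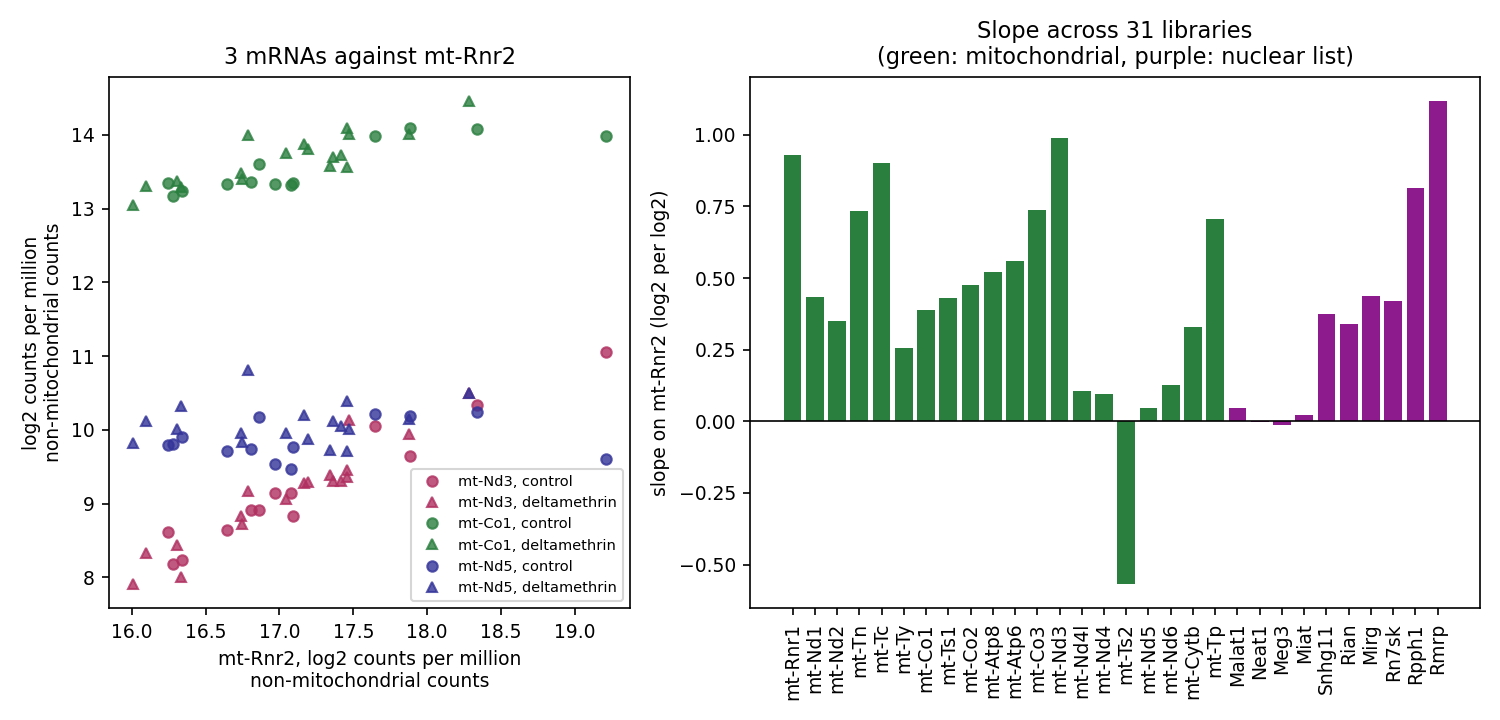
Left, mt-Nd3, mt-Co1 and mt-Nd5 against mt-Rnr2, as log2 counts per 1000000 non-mitochondrial counts, 1 point per library (31). Right, slope on mt-Rnr2 of 20 mitochondrial genes and 10 nuclear RNAs, with 0.99 for mt-Nd3, 1.12 for Rmrp, 0.046 for mt-Nd5 and -0.57 for mt-Ts2.

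The nuclear genes that make and process mitochondrial RNA (polymerase, transcription factors, RNA-cleaving and modifying enzymes, stability factors) were taken from a list of 49, of which 48 matched the table by symbol and all 48 were tested. None had an adjusted p under 0.05 in edgeR, and 2 passed an unadjusted p under 0.05, which is 4.17% beside 4.37% of all tested genes. Gabpa, a transcription factor of nuclear genes for mitochondrial proteins, had a log2 fold change of 0.16 ± 0.071 (SE; edgeR unadjusted p = 0.034, adjusted p = 0.813). Gtpbp3, which modifies mitochondrial tRNAs, had -0.14 ± 0.066 (edgeR unadjusted p = 0.0448, adjusted p = 0.813). The median fold change of the list was -0.0414 on the log2 scale, with 11 genes positive and 37 negative, beside 9864 of 19529 positive and a median of 0.00137 over all tested genes.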

How the data were processed

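The authors deposited raw counts per gene, whole numbers with no normalization, for 31 libraries of total RNA. Per the submitters' processing notes, the tools were Trimmomatic, HISAT2, SAMtools and MultiQC and the build GRCm38, with no versions. The counting tool, its use of strand and its treatment of reads with several matches are not given in the sources used here. Counts of overlapping genes, of genes on opposite strands and of near-identical copies are therefore uncertain.

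Groups came from the agent label. Members and gene lists were chosen with earlier results of these data known. Gene IDs, coordinates and sequences came from GENCODE M21. Shares are of the column total. edgeR (4.0.16, R 4.3.3) used filterByExpr (minimum count 10, minimum total 15), TMM factors and the quasi-likelihood test (robust=TRUE), with Benjamini-Hochberg adjustment. Standard errors (SE) were derived from the fold change and the F statistic (its size over root F). DESeq2 (1.42.0) and limma voom (3.58.1) were alternatives. Permutation tests had 100000 resamples and are two-sided. Correlations used a prior count of 0.5. Copies were searched with blastn (2.17.0+). By rule, any member could be named, with full values for both rRNAs, the 5 mRNAs and 5 tRNAs of highest mean count and every member at an unadjusted p under 0.05, and for the nuclear expression list up to 8 genes at that p; Gm28439, the libraries named and the nuclear RNAs named were chosen after their values were seen.

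In a test on simulated data (19399 genes, 50 changed per fold), edgeR called 100% of genes raised by a fold of 2, 84% by 1.5 and 26% by 1.25, as well as 96% lowered to 0.5. It called 14 of 19201 genes left as they were. Every simulated gene had the same common dispersion (spread between libraries), so these percentages hold for that setting only. How often edgeR would call real genes, mitochondrial ones among them, at these folds, given their own spread between libraries, was not tested. In the deposited data mt-Ts2, at a log2 fold change of 1.08 ± 0.37 (SE), had an adjusted p of 0.813 in edgeR.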

Additional observations from a re-analysis of the deposited data

How the results depend on the processing

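No member passed an adjusted p under 0.05 in any alternative run. Percentages in parentheses are shares of all tested genes. The 4 members at an unadjusted p under 0.05 (4.37%) became 5 with no scaling factors (3.65%) and 3 with robust=FALSE (4.38%). With no count filter 6 of 37 passed, all higher with deltamethrin (5.1%). The number was 2 with mitochondrial genes left out of the library sizes (4.33%). With a mean count of at least 50 it was 0 of 18 (4.26%), with mt-Ts2 and mt-Ty not among those tested. Without control replicate 2 and deltamethrin replicate 3 it was 2 (2.42%). That alternative was chosen after seeing the data, as was adding the nuclear copies. Without 1 library, where 2.68% to 7.13% of all tested genes passed, the number was 1 to 4. It was 1 without control replicates 3, 8, 9, 10, 12 or 13 or deltamethrin replicates 3 or 8. It was 2 without control replicates 2, 4 or 5 or deltamethrin replicates 1, 6, 7, 9, 10 or 12. mt-Ts2 passed in all 31 such fits (log2 0.7585 to 1.308) and mt-Ty in 21, mt-Nd5 in 15 and mt-Nd4 in 12.

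The rRNAs turned positive with both libraries left out, mt-Rnr1 at 0.051 and mt-Rnr2 at 0.020, and without control replicate 2 alone (0.020 and 0.0035). Without 1 library mt-Rnr1 ran from -0.3703 to 0.02026 and mt-Rnr2 from -0.458 to 0.003514. The nuclear list's 2 genes became 1 with upper quartile factors, with no factors and with no count filter. They became 3 with DESeq2, with a mean count of at least 50 and with mitochondrial genes left out of the library sizes. Without 1 library the number was 0 to 5 (5 without control replicate 7, 0 without control replicates 10 or 13 or deltamethrin replicates 2, 3 or 6). Of all tested genes 4.32% passed with upper quartile factors, and the shares for the other runs are given above.
Shares without 1 library differed by -2.437 to 0.2702 (rRNA), 0.1077 to 0.2808 (mRNA), -0.0002688 to 0.0005187 (tRNA) and -2.33 to 0.5155 (all). The log2 ratio differences ran from -0.0695 to 0.006 for mt-Rnr2 over mt-Rnr1 (positive without control replicate 1), 0.1287 to 0.3229 for mt-Co1 over mt-Rnr2, and -0.0032 to 0.1016 for mt-Nd6 over mt-Nd5 (negative without control replicate 10). On non-mitochondrial counts the tRNA share differed by -0.000613 and the summed share by -3.797, and the medians differed by 0.481 (mRNA), 0.0007305 (tRNA) and 2.618 (all). No paired analysis was possible because the labels carry no replicate numbers shared between the groups. Depth limits the tRNAs, 16 of which did not pass the count filter.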
